A study of Rattus norvegicus with 75 samples.

Results

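The 5 subunits of the transcription factor NF-kB (Nfkb1, Nfkb2, Rela, Relb and Rel) and 5 genes that restrain or tune it (Nfkbia, Nfkbie, Nfkbiz, Bcl3 and Tnfaip3) were described in kidney tubules of rats fed lithium. They were taken by gene symbol from a table of 32754 genes, and all 10 had a single row. The tubules, microdissected from the kidneys of male Sprague-Dawley rats that weighed 120 to 160 g, were either cortical collecting duct (CCD) or cortical thick ascending limb (cTAL). Control rats ate food without lithium; for the others each kg of food held 40 mM of lithium chloride. Polyadenylated RNA was sequenced in 75 libraries. The CCD groups held 3 controls and 2 lithium libraries after 12 h. After 24 h, as after 36 h, each CCD group held 3 libraries, and after 72 h the controls numbered 17 and the lithium libraries 19. The cTAL was taken only after 72 h, as 12 controls and 10 lithium libraries. The labels name no other agent and no modified allele.

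NF-kB is a family of dimers. In the canonical branch p50, made from Nfkb1, pairs with RelA or c-Rel and is held in the cytoplasm by inhibitors such as IkB alpha (Nfkbia) and IkB epsilon (Nfkbie) until IkB kinase marks them for breakdown; in the noncanonical branch p52, made from Nfkb2, pairs with RelB after the kinase NIK (Map3k14) builds up. Several members are themselves known targets of NF-kB, which makes them feedback genes: Nfkbia and Nfkbie rebuild the brake, Tnfaip3 encodes the ubiquitin editor A20, and Bcl3 and Nfkbiz encode nuclear IkB proteins that bind p50 or p52 on DNA. In kidney tubules the pathway is known for its response to inflammatory cytokines and injury.

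Levels are in TPM, a unit already divided by transcript length and scaled to the library total, so levels of different genes can be compared but sequencing depth is unknown. Differences are on the log2(TPM + 1) scale with their standard error (SE), and called means that limma's adjusted p fell under 0.05. The CCD identity of the libraries matched their markers: 7 principal cell markers summed to a median of 14657 TPM in control CCD and 124 TPM in control cTAL at 72 h, whereas 5 thick ascending limb markers summed to 95.55 and 75438 TPM. Between 10888 and 12411 genes reached 1 TPM in a library. Which libraries stem from different rats is not in the labels, so p-values measure only how libraries vary, and that variation may be technical. In 5 genes with separate levels, the libraries at 72 h fell in 4 control and 4 lithium sets of consecutive numbers, shared between CCD and cTAL, and each of the 6 early groups held 1 level in all 5. For this reason, each test was also run on the means of sets, where each early group counts as 1 value and the error is estimated from the 72 h sets. In bulk samples fewer cells of a type and less RNA per cell cannot be told apart.

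Most promoters of the members held the short DNA element that NF-kB is known to bind. A RefSeq promoter, from 250 bases before to 50 after the start, was matched by symbol for 9 of the 10 members (all but Relb). The kappaB consensus of 10 bases, searched on both strands, was found in 8 of these 9, before the start in 7 (in Nfkb1 only after it, in Rela not in this window). Of all 33469 promoters in the table, 7.51% held a match and 6.33% held one before the start. The windows below, 60 bases of each of the 7 promoters, are shown because they hold the upstream match nearest to the start; capitals mark the bases of a match. They are written 5′ to 3′ on the gene's strand in the build GRCr8, which is not the build of the expression values (Rnor_6.0). The window of Nfkb2 is chr1:255108314-255108373 (plus strand), of Rel chr14:101921991-101922050 (minus strand), of Nfkbia chr6:78597075-78597134 (minus strand) and of Nfkbie chr9:22948008-22948067 (minus strand). That of Nfkbiz is chr11:58251661-58251720 (plus strand), of Bcl3 chr1:88613565-88613624 (minus strand) and of Tnfaip3 chr1:15544006-15544065 (minus strand).
Nfkb2: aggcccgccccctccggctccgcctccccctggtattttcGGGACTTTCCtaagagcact
Rel: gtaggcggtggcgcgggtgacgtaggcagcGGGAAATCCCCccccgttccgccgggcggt
Nfkbia: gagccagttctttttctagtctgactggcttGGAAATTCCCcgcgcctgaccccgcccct
Nfkbie: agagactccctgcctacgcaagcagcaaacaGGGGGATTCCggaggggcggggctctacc
Nfkbiz: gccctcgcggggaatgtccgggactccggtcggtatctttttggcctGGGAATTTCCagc
Bcl3: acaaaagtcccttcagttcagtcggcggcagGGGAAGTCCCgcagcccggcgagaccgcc
Tnfaip3: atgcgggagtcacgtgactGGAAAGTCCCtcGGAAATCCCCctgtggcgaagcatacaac

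The matches lie close to the start in most of these promoters. That of Nfkb2 spans bases -20 to -11 counted from the start, that of Nfkbiz -13 to -4, that of Nfkbia -31 to -22 and that of Bcl3 -38 to -29, while that of Nfkbie lies at -164 to -155. Tnfaip3 holds a pair in its window, at -67 to -58 and -55 to -46, and a further match at -170 to -161; Rel holds overlapping matches at -82 to -72 and at -219 to -209. A match describes letters in the window, and binding was not measured.

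In control CCD at 72 h the members covered a wide range of levels. Nfkbia (92.6 ± 25.7 TPM, SD, n = 17) and Rela (83.8 ± 12.1) were the most abundant, followed by Nfkbie (28.1 ± 10.3) and Nfkb1 (25.6 ± 6.87). Nfkb2 (14.9 ± 5.01), Relb (9.44 ± 3.54) and Nfkbiz (4.86 ± 1.92) lay below them. Tnfaip3 (1.54 ± 0.583), Rel (1.18 ± 0.446) and Bcl3 (0.405 ± 0.422) were near or under 1 TPM, where the log2(TPM + 1) scale understates changes. The plot of the 10 members by library shows these levels in all 10 groups.

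**Figure D1:**
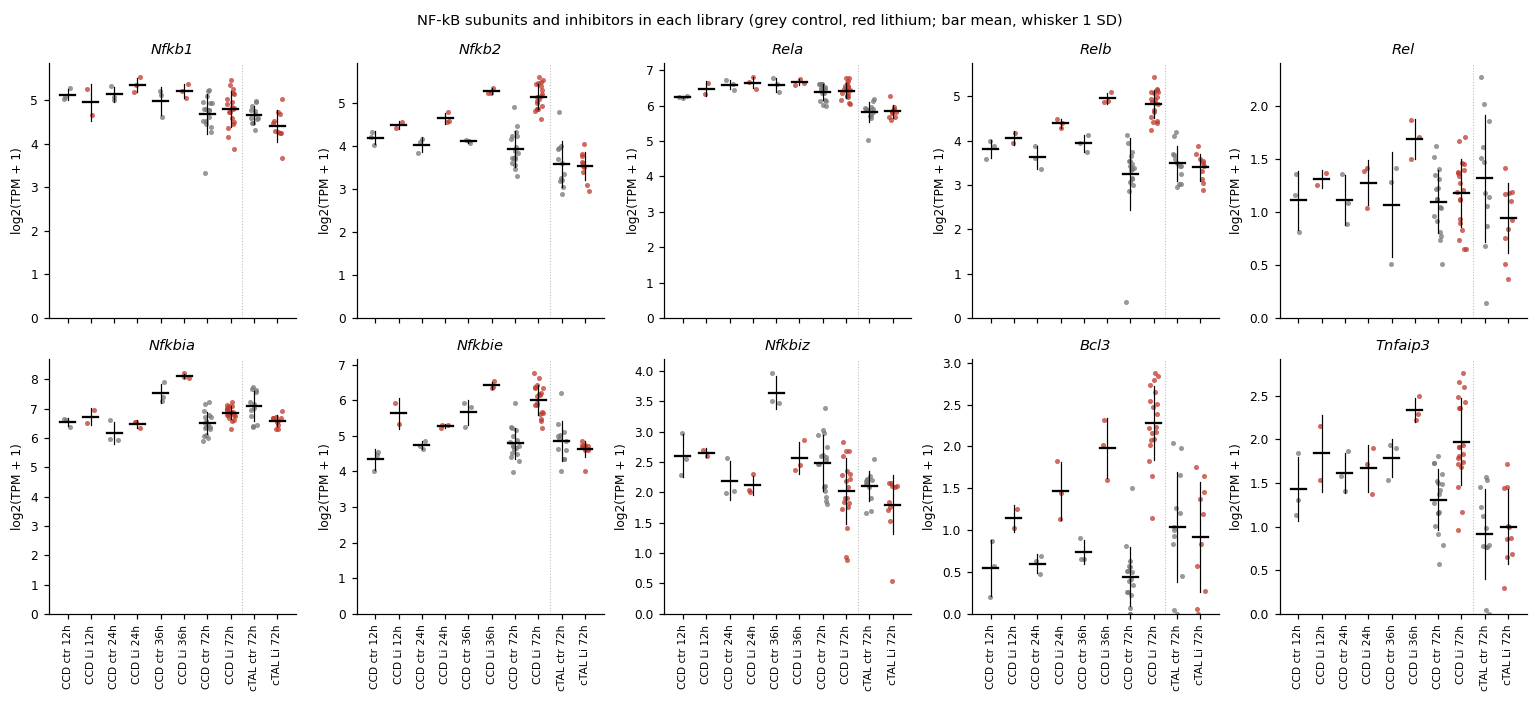
Each panel is 1 gene; each point is a library on the log2(TPM + 1) scale, with controls in grey and lithium in red, and the bar and whisker give the mean and 1 SD of each of the 10 groups. Nfkb2, Relb, Nfkbie and Bcl3 stand higher under lithium in CCD from 24 h on, whereas Nfkb1 and Rela stay near their controls and the cTAL groups (right of the dotted line) overlap.

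With lithium for 72 h, CCD had higher transcript levels of the noncanonical subunits Nfkb2 and Relb and of the feedback genes Nfkbie, Bcl3, Tnfaip3 and Nfkbia, and a lower level of Nfkbiz. Of the 10 members 7 were called, 6 higher and 1 lower. In this comparison limma called 37.3% of all genes tested, 22% higher and 15.2% lower. The median difference was 0.52 over the members and -0.00 over all genes. On the means of sets 5 members were called (Nfkb2, Relb, Nfkbie, Bcl3 and Tnfaip3), beside 15.1% of all genes. The groups did not overlap for 1 member, Relb, beside 1.71% of genes with all lithium libraries higher and 0.309% with all lower.

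Relb, the partner of p52, was the member whose groups separated at 72 h. Control CCD libraries ranged from 0.28 to 16.44 TPM with a median of 9.42, and lithium libraries from 18.04 to 41.98 TPM with a median of 28.24. All 19 lithium libraries lay above all 17 controls. The difference was 1.59 (SE 0.19, limma adjusted p = 7.94e-09), and 1.60 on means of sets (limma adjusted p = 0.000118). The control at 0.28 TPM was library 17, and the next lay at 6.24 TPM; without it the difference was 1.41 (limma adjusted p = 2.1e-13). Set means of Relb were 9.10 to 9.87 TPM in controls and 24.28 to 35.1 TPM under lithium, so the control sets lay closer together than the lithium sets.

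Nfkb2, the source of p52, was also higher. Controls ranged from 8.81 to 29.15 TPM with a median of 13.32 and lithium libraries from 23.62 to 47.29 TPM with a median of 34.08. The groups overlapped only through control library 17, the highest control in Nfkb2 and the lowest in Relb; the next control lay at 20.94 TPM. The difference was 1.22 (SE 0.11, limma adjusted p = 1.71e-11; 1.27 on means of sets, adjusted p = 0.000438).

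The canonical subunits did not pass the test at 72 h. Rela, the main transactivating subunit, had medians of 87.03 TPM in controls and 86.02 TPM under lithium, a difference of 0.03 (95% interval -0.11 to 0.18, limma adjusted p = 0.751). Nfkb1 differed by 0.11 (95% interval -0.16 to 0.39, adjusted p = 0.554) and Rel, which encodes c-Rel, by 0.08 (95% interval -0.14 to 0.30, adjusted p = 0.611). These intervals lie below that of Nfkb2 (0.99 to 1.45) and below that of Relb, which ends at 1.97.

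Bcl3, a nuclear IkB protein that works with p50 and p52 dimers, had the largest difference of the 10 members on this scale. Its controls ranged from 0 to 1.84 TPM with a median of 0.33, and 16 of 17 lay under 1 TPM. Lithium libraries ranged from 1.21 to 6.32 TPM with a median of 3.69. Only 1 control, at 1.84 TPM, reached into the lithium range. Bcl3 thus passed the filter of 1 TPM through its lithium libraries. The same held at 12, 24 and 36 h, where all its controls were under 1 TPM. A member let in this way can hardly be called lower, so its calls and rank in CCD are description only. This holds also for its part in the counts of called members in CCD. The difference was 1.84 (SE 0.14, limma adjusted p = 2.33e-14), and set means were 0.268 to 0.75 TPM in controls against 2.99 to 6.01 TPM under lithium.

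Nfkbie, the IkB epsilon gene, ranged from 14.98 to 59.95 TPM in controls (median 25.38) and from 36.16 to 107.07 TPM under lithium (median 68.86). The groups overlapped through 3 controls, at 36.56, 37.24 and 59.95 TPM, and all 19 lithium libraries lay above the control median. The difference was 1.22 (SE 0.14, limma adjusted p = 1.91e-09), and set means did not overlap (22.8 to 33.3 TPM in controls, 46.6 to 89.3 TPM under lithium). Nfkbia, the classical IkB alpha gene, moved less: controls ranged from 58.72 to 148.13 TPM (median 86.92) and lithium libraries from 77.66 to 149.88 TPM (median 116.03). The groups overlapped over most of their ranges. The difference was 0.36 (SE 0.10, limma adjusted p = 0.00316), with an adjusted p = 0.0838 on means of sets.

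Tnfaip3, the A20 gene, ranged from 0.49 to 2.5 TPM in controls (median 1.59) and from 0.94 to 5.76 TPM under lithium (median 2.76). Its difference of 0.67 (SE 0.15) was called by limma over libraries (adjusted p = 0.000291) and over means of sets (adjusted p = 0.0287), although the groups overlapped. Nfkbiz, the IkB zeta gene, went the other way, from a median of 4.81 TPM (2.51 to 9.54) in controls to 3.24 TPM (0.85 to 6.11) under lithium. Its difference of -0.46 (SE 0.17, limma adjusted p = 0.0266) was not called on means of sets (adjusted p = 0.112), and it lost the call without control libraries 9 to 12 (adjusted p = 0.0853) or 13 to 17 (0.0900), or lithium libraries 12 to 15 (0.0638) or 16 to 19 (0.0884).

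**Figure D2:**
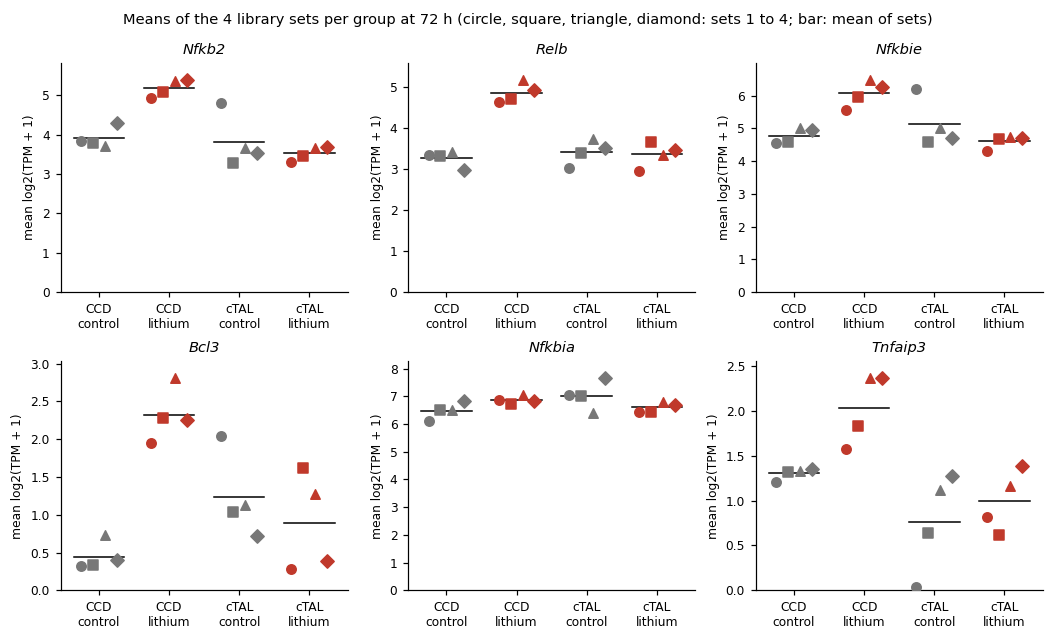
Each panel is 1 gene at 72 h; each marker is the mean log2(TPM + 1) of 1 of the 4 library sets of a group, and the bar is the mean of the sets. For Nfkb2, Relb, Nfkbie, Bcl3 and Tnfaip3 the 4 lithium sets of CCD lie above the 4 control sets, for Nfkbia 1 control set lies within the lithium range, and in cTAL the ranges of the sets overlap.

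At 36 h in CCD the groups did not overlap for 8 members. Nfkb2, Relb, Rel, Nfkbia, Nfkbie, Bcl3 and Tnfaip3 were higher in each of the 3 lithium libraries than in each of the 3 controls, and Nfkbiz was lower. Groups did not overlap in that way for 34.6% of all genes upward and 14.4% downward. By limma 6 members were called, 5 higher and 1 lower, beside 34.8% of all genes (25.5% higher, 9.28% lower). None was called with means of sets, with 4 at an unadjusted p under 0.05, beside 5.66% of all genes. The median difference was 0.61 over the members and 0.13 over all genes.

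Nfkb2 at 36 h was 16.74, 16.33 and 15.88 TPM in controls and 36.78, 39.79 and 36.39 TPM under lithium, a difference of 1.16 (SE 0.12, limma adjusted p = 6.68e-07). Relb was 16.55, 12.49 and 14.4 TPM in controls and 28.69, 33.33 and 28.3 TPM under lithium, a difference of 1.01 (SE 0.15, adjusted p = 6.46e-05). The means of both were within 1 SD of those of lithium CCD at 72 h. Bcl3 was 0.87, 0.58 and 0.57 TPM in controls and 2.03, 3.98 and 3.06 TPM under lithium (1.24, SE 0.23, limma adjusted p = 0.000484). Nfkbie was 55.3, 59.51 and 37.25 TPM against 80.7, 91.34 and 82.42 TPM (0.76, SE 0.18, limma adjusted p = 0.00314). With means of sets the limma adjusted p of these 4 were 0.0678, 0.101, 0.104 and 0.374.

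Nfkbiz and Nfkbia, both at their highest control mean at 36 h, were called in opposite directions. Nfkbiz was 14.57, 10.06 and 10.32 TPM in controls and 4.17, 6.28 and 4.46 TPM under lithium, and each lithium library lay below each control (-1.08, SE 0.21, limma adjusted p = 0.00088). Nfkbia was 237.92, 167.06 and 152.45 TPM in controls and 272.43, 293.39 and 262.04 TPM under lithium (0.59, SE 0.18, adjusted p = 0.015). Neither was called with means of sets (limma adjusted p = 0.141 and 0.316). The call of Nfkbia was lost with median-of-ratios scaling (0.42, adjusted p = 0.0626) and without control library 2 (0.0545) or 3 (0.0750) or lithium library 2 (0.0555). The joint fit of all CCD groups also lost it, as it did Relb and Nfkbie, whereas Nfkbiz, Nfkb2 and Bcl3 kept their calls there. Rel (0.62, adjusted p = 0.0527) and Tnfaip3 (0.55, adjusted p = 0.0750) did not pass the test, and Nfkb1 (0.24) and Rela (0.07) overlapped their controls.

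At 24 h in CCD the noncanonical subunits, Nfkbie and Bcl3 were higher under lithium, by smaller amounts than at 36 h. These 4 members were called by limma, beside 25.7% of all genes (19.9% higher, 5.77% lower), and these 4 did not overlap their controls, beside 33.9% of genes upward and 10.4% downward. None was called on means of sets (2 at an unadjusted p under 0.05, 2.63% of all genes called). Nfkb2 was 13.21, 15.98 and 17 TPM in controls and 26.75, 22.93 and 22.51 TPM under lithium (0.62, SE 0.11, limma adjusted p = 0.000783). Relb was 11.25, 9.25 and 13.81 TPM against 18.39, 21.46 and 20.14 TPM (0.77, SE 0.15, adjusted p = 0.0012). Bcl3 was 0.39, 0.62 and 0.55 TPM against 1.19, 2.55 and 1.72 TPM (0.87, SE 0.24, limma adjusted p = 0.0121). Every lithium library of these 3 genes exceeded its highest control. Nfkbie (0.54, SE 0.18, adjusted p = 0.0332) lost its call with median-of-ratios scaling (0.38, adjusted p = 0.0683) and without any one of 5 of the 6 libraries at 24 h (adjusted p from 0.0600 to 0.103), the exception being control library 1. Without lithium library 2, Bcl3 also lost its call (0.69, adjusted p = 0.0661), which left 2 members. The joint fit of all CCD groups called no member at 24 h.

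At 12 h Nfkbie was the member called by limma, beside 11.7% of all genes (7.96% higher, 3.78% lower). It was 15.11, 22.26 and 21.17 TPM in controls and 39.1 and 60.22 TPM in the 2 lithium libraries, both above all controls (1.29, SE 0.20, adjusted p = 0.000393; 0.396 on means of sets, where no member was called, 1 had an unadjusted p under 0.05 and 0.025% of all genes were called). Nfkb2 (0.30), Rela (0.24) and Bcl3 (0.59) also did not overlap their controls but did not pass the test, and 23.2% of all genes did not overlap upward and 11.3% downward. Bcl3 was 0.15, 0.83 and 0.48 TPM in controls and 1.04 and 1.38 TPM under lithium (adjusted p = 0.170).

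**Figure D3:**
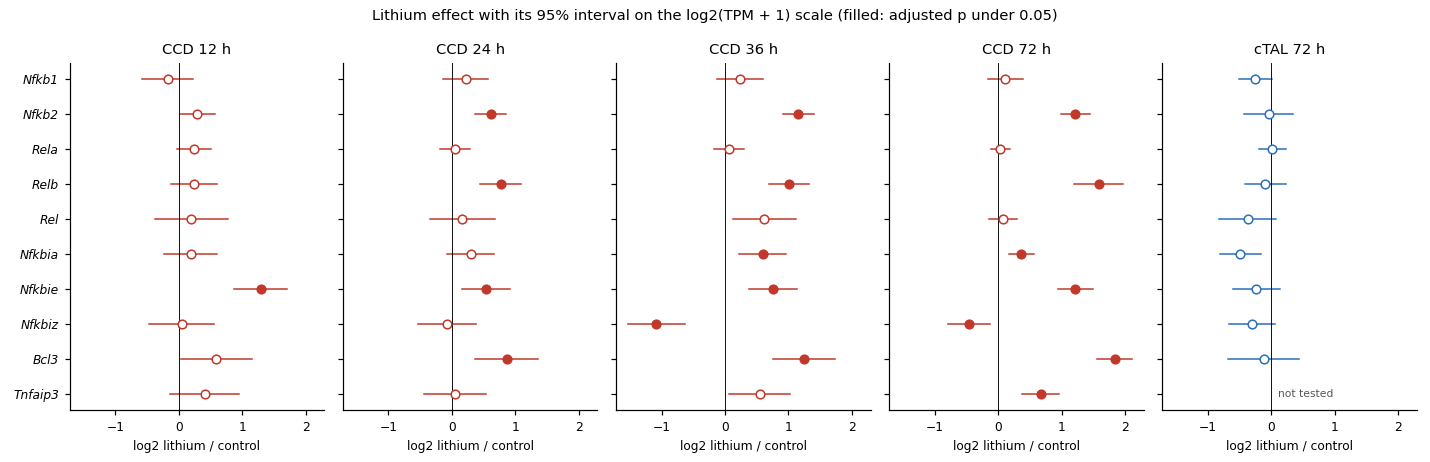
Each panel is 1 comparison of lithium with control; points give the difference in log2(TPM + 1), lines its 95% interval, and filled points an adjusted p under 0.05. Nfkbie is filled at all 4 times in CCD, Nfkb2, Relb and Bcl3 from 24 h on, Nfkbiz lies left of 0 at 36 and 72 h, and no point is filled in cTAL, where Tnfaip3 was not tested.

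Whether the lithium effect in CCD differed between 12, 24, 36 and 72 h was tested for each member, and limma's F test called Bcl3 alone (adjusted p = 0.0189), beside 8.43% of all genes. Bcl3 passed the filter here too through its lithium libraries, so this call is description only. Its group means under lithium were 1.21, 1.82, 3.02 and 4.07 TPM at these times and 0.487, 0.520, 0.673 and 0.405 TPM in controls. The call was lost without lithium library 1 at 12 h (adjusted p = 0.0655), with a pseudocount of 0.1 TPM (0.0880) and on means of sets (0.552, where no member was called, 2 had an unadjusted p under 0.05 and 0.121% of all genes were called). Nfkb2 (adjusted p = 0.0798) and Relb (0.175) did not pass, but both did without control library 17 at 72 h (limma adjusted p = 0.0159 and 0.0116), so the count then was 3.

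The inhibitors also differed between times in control CCD, against which each effect is read. Nfkbia (adjusted p = 0.000124), Nfkbie (0.0109) and Nfkbiz (0.0108) were called by limma's F test over the 4 control groups, beside 15.4% of all genes; Bcl3 was filtered out. All 3 had their highest control mean at 36 h. Nfkbia averaged 92.6, 72.9, 185.8 and 92.6 TPM, Nfkbie 19.5, 25.7, 50.7 and 28.1 TPM, and Nfkbiz 5.21, 3.65, 11.7 and 4.86 TPM at 12, 24, 36 and 72 h. Without control library 1 at 36 h, Nfkbie (0.0705) and Nfkbiz (0.114) lost the call and Nfkbia kept it, and without library 2 Nfkbie did (0.0949). None of the 3 was called by limma with means of sets (adjusted p = 0.223, 0.461 and 0.328, with 4 members at an unadjusted p under 0.05 and 0.117% of all genes called).

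**Figure D4:**
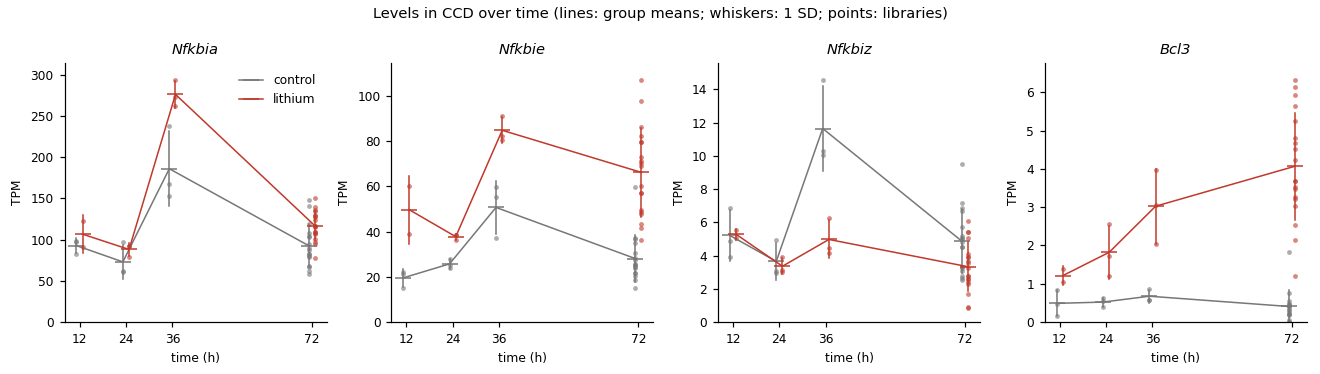
TPM of 4 inhibitors in CCD against time in h, with points for libraries, lines through group means and whiskers of 1 SD, controls in grey and lithium in red. Nfkbia, Nfkbie and Nfkbiz peak at 36 h in controls, Nfkbiz under lithium stays near 5 TPM at that time, and the lithium mean of Bcl3 is higher at each later time.

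In cTAL after 72 h of lithium limma called none of the 9 members tested, with 1 at an unadjusted p under 0.05 (Nfkbia), beside 0.701% of all genes called (0.111% higher, 0.59% lower). With means of sets limma called 0 members, none with an unadjusted p under 0.05, and 0% of all genes. Tnfaip3 was under the filter, with medians of 0.855 TPM in controls and 0.91 TPM under lithium. The groups overlapped for every member, beside 0% of genes that did not upward and 0.0171% downward, and the median difference was -0.24 over the members and -0.08 over all genes. Relb ranged from 6.75 to 17.35 TPM in controls and from 6.34 to 13.68 TPM under lithium (-0.09, 95% interval -0.42 to 0.23). Nfkb2 ranged from 6.37 to 26.66 TPM and from 6.69 to 15.65 TPM (-0.04, 95% interval -0.43 to 0.35), and Bcl3 from 0 to 3.13 TPM and from 0 to 2.37 TPM (-0.12, 95% interval -0.68 to 0.44). The upper limits of these intervals lie below the differences in CCD.

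Levels among cTAL controls differed between the sets. Control library 1, a set of its own, had the highest Nfkb2 (26.66 TPM), Nfkbie (72.58 TPM), Rel (3.82 TPM) and Bcl3 (3.13 TPM) of its group. Control libraries 9 to 12 had Nfkbia at 189.88 to 211.3 TPM, above all 8 other controls, and libraries 6 to 8 had it at 81.34 to 85.8 TPM. The difference of Nfkbia in cTAL was -0.49 (SE 0.16, limma adjusted p = 0.189); without control libraries 6 to 8 it was -0.71 and called (adjusted p = 0.00334), and without control libraries 9 to 12 it was -0.20 and not called.

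By limma's test of the difference itself, 5 members had a higher signed lithium effect at 72 h in CCD than in cTAL. Of all genes 15.3% were called (11.8% upward, 3.44% downward). For Nfkbia the effects had opposite signs, 0.36 in CCD and -0.49 in cTAL, the latter not called. The difference of the effects was 1.96 for Bcl3 (SE 0.28, adjusted p = 1.09e-07), 1.68 for Relb (SE 0.28, 4.18e-06), 1.45 for Nfkbie (SE 0.23, 1.71e-06), 1.26 for Nfkb2 (SE 0.21, 4.7e-06) and 0.85 for Nfkbia (SE 0.18, 0.000338). With means of sets 4 of these were called, beside 3.71% of all genes, with Nfkbia at an adjusted p = 0.162. With the set, which CCD and cTAL share, as a block in that fit, these 4 and Nfkbia were called. Rela (0.01, 95% interval -0.24 to 0.26), Nfkbiz (-0.15, -0.65 to 0.35), Nfkb1 (0.36, -0.04 to 0.77), Rel (0.45, adjusted p = 0.164) and Tnfaip3 (0.59, adjusted p = 0.0996) did not pass.

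Without lithium, Rela was higher and Nfkbia lower in CCD than in cTAL. Between controls at 72 h limma called 4 of 9 members, 3 higher and 1 lower in CCD, beside 68.4% of all genes (49.8% higher, 18.6% lower). The groups overlapped for all 10 members, beside 9.06% of genes that did not upward and 5.49% downward. Rela was 83.8 ± 12.1 TPM in CCD (SD, n = 17) and 56.5 ± 10.2 TPM in cTAL (n = 12), and Nfkbia was 92.6 ± 25.7 and 141.8 ± 48.6 TPM. The median difference was 0.01 over the members and 0.28 over all genes. Limma gave Rela 0.57 (adjusted p = 5.37e-08) and Nfkbia -0.58 (adjusted p = 5.94e-05). Over the alternatives tried, Rela ranged from 0.29 to 0.67 and Nfkbia from -0.86 to -0.29. These 2 were also called on means of sets, beside 47.8% of all genes, and without control CCD library 17. They were called as well on means of sets with the set as a block. Nfkb2 (0.35, adjusted p = 0.0285) and Tnfaip3 (0.39, adjusted p = 0.0394) were not called without that library (0.0588 and 0.0595), nor without control cTAL libraries 2 to 5 (0.293 and 0.262). Median-of-ratios scaling moved the median of all genes by -0.26 in this comparison, and the split became 1 higher and 5 lower, with Nfkb1 turning from 0.01 to -0.26 (adjusted p = 0.0223). The same scaling moved the median of all genes by -0.16 at 36 h and by -0.15 at 24 h.

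Across the 10 groups the highest mean was in lithium CCD at 36 h for Nfkb2, Rela, Relb, Rel, Nfkbia, Nfkbie and Tnfaip3. It was in lithium CCD at 72 h for Bcl3, in lithium CCD at 24 h for Nfkb1 and in control CCD at 36 h for Nfkbiz. For most neighbours in these orders the ranges of mean ± SD overlapped. Nfkb2 had a gap below lithium CCD at 72 h (35.1 ± 7.12 TPM against 24.1 ± 2.34 at 24 h) and between the lithium and control CCD groups at 12 h. Relb had gaps below lithium CCD at 72 h and at 24 h, Nfkbia below lithium CCD at 36 h, Nfkbiz below control CCD at 36 h, and Rela between control CCD at 12 h and both cTAL groups. No neighbours were apart for Nfkb1, Rel, Nfkbie, Bcl3 or Tnfaip3.

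Other genes of the pathway were grouped by role, in lists drawn up with results of these data known. Of 10 ligands only Tnfsf12, which encodes TWEAK, passed the filter in CCD at 72 h, and it was not called (0.16, limma adjusted p = 0.314). Of 17 receptors and adaptors tested there, 6 were called higher and none lower, where 37.3% of all genes were called (22% higher), so the share called was near that of all genes. The median difference was 0.06, against -0.00 over all genes. Those of smallest p were Tnfrsf12a, the TWEAK receptor, at 1.36 (limma adjusted p = 6.66e-14), Cd40 at 2.04 (2.76e-12) and Tlr2 at 0.93 (6.11e-05). With Tnfrsf1a they were called on means of sets, beside 15.1% of all genes, whereas Traf2 and Traf5 were not (limma adjusted p = 0.0956 and 0.263). Tnfrsf12a averaged 51.7 ± 10.3 TPM in controls (SD, n = 17) and 136.1 ± 35.4 TPM under lithium (n = 19). Cd40, a receptor that feeds the noncanonical branch, averaged 0.439 ± 0.48 and 5.13 ± 2.69 TPM. It passed the filter mainly through its lithium libraries, so its calls in CCD at 72 h, also within the counts of this list, are description only. At 12 h limma called 2 of 17 receptors and adaptors, both higher, beside 11.7% of all genes. At 24 h it called 5 of 16, all higher, beside 25.7%, and at 36 h 2 of 17 higher and 1 lower, beside 34.8% (Tnfrsf12a 1.99, Traf2 0.67 and Tradd -0.45). On means of sets 0, 0 and 1 of these were called, the last being Tnfrsf12a at 36 h (limma adjusted p = 0.00827).

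Of 10 kinases in CCD at 72 h, Ikbke was called higher (0.88, limma adjusted p = 1.15e-05) and Tab2 lower (-0.30, adjusted p = 0.0250). Of all genes 22% were called higher and 15.2% lower. Ikbke alone was called on means of sets, beside 15.1% of all genes. Map3k14, the NIK gene, was 1.75 ± 0.819 TPM in controls and 1.92 ± 0.658 TPM under lithium and was not called (0.11, limma adjusted p = 0.523; named after its values were seen). Of 13 other inhibitors tested, 2 were called lower and none higher, beside 15.2% of all genes lower, a share near that of the list. They were Tax1bp1 (-0.41, adjusted p = 0.000162) and Itch (-0.38, adjusted p = 0.0392), both known partners of A20, and Itch was not called on means of sets (limma adjusted p = 0.292). At 36 h 3 other inhibitors were called higher (N4bp1 0.52, Zc3h12a 0.70 and Birc2 0.37), beside 25.5% of all genes. At 24 h 2 were lower (Nfkbib -0.58 and Irak3 -0.82), beside 5.77%, and at 12 h 1 was (Irak3 -0.99), beside 3.78%. On means of sets 0 of the other inhibitors and 0 of the kinases were called at these 3 times (limma adjusted p from 0.230 to 0.810 for the inhibitors named). The shares of all genes there were 5.66% at 36 h, 2.63% at 24 h and 0.025% at 12 h. Among 11 kinases limma called Ikbkb at 36 h (0.45), beside 34.8% of all genes. It called none at 24 h (2 at an unadjusted p under 0.05) or 12 h (3), beside 25.7% and 11.7%.

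Of 18 targets tested in CCD at 72 h, 14 were called higher and 2 lower, beside 22% and 15.2% of all genes. The median difference was 1.56. The chemokine gene Ccl20 was at 3.17 ± 3.78 TPM in controls and 129.2 ± 44.3 TPM under lithium (5.38, SE 0.28, limma adjusted p = 8.04e-19), and Cxcl10 at 2.33 ± 1.36 and 30.7 ± 13.0 TPM (3.29, SE 0.20, adjusted p = 3.81e-17). Ier3, an early response gene, was lower, with 334.4 ± 90.9 TPM in controls and 99.2 ± 17.4 TPM under lithium (-1.71, SE 0.10, adjusted p = 2.99e-17). The other called lower target was Sod2 (-0.11, adjusted p = 0.0179). With means of sets 14 of the 18 were called, beside 15.1% of all genes. A kappaB match was in 9 of the 19 target promoters in the RefSeq table, beside 7.51% of all promoters. The other lists held matches too, in 3 of 8 ligand promoters and 4 of 16 of receptors and adaptors. Of kinase promoters 2 of 8 held a match, and of other inhibitors 2 of 13.

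The targets were called at the early times as well. In CCD at 12 h limma called 9 of 19 higher and 2 lower, beside 7.96% and 3.78% of all genes. The counts at 24 h were 8 of 17 higher with 2 lower, beside 19.9% and 5.77%, and those at 36 h were 11 of 19 with 1, beside 25.5% and 9.28%. With means of sets 0 targets were called at 12 h, and 3 and 5 at the later of these times, beside 0.025%, 2.63% and 5.66% of all genes. In limma over libraries 14 targets at 12 h had an unadjusted p under 0.05. Lcn2, which encodes the injury marker lipocalin 2, was at its highest at 24 h, with 4.19 ± 1.72 TPM in controls and 291.4 ± 44.6 TPM under lithium (SD, n = 3 each; 5.86, limma adjusted p = 1.76e-08; 0.00275 on means of sets), and was 18.2 ± 9.74 TPM in lithium CCD at 72 h. In cTAL none of the 19 targets tested was called, with 4 at an unadjusted p under 0.05, beside 0.701% of all genes called. Nor were any of the 20 receptors and adaptors (4 unadjusted), 9 kinases (1), 13 other inhibitors (0) and 3 ligands (0). The test of the difference between segments called 13 of 22 targets with a higher signed effect in CCD and 1 with a lower one. Of all genes it called 11.8% and 3.44%. The targets of smallest p were Ccl20 (5.88), Cxcl16 (2.08) and Ier3 (-2.18). Ier3 was the 1 with a lower signed effect, and in CCD it was lower under lithium (-1.71). Of 20 receptors and adaptors the test called 5, all with a higher signed effect in CCD (Cd40 2.54, Tnfrsf12a 1.51 and Tlr2 1.33). On means of sets it called 9 targets and 3 receptors and adaptors, beside 3.71% of all genes.

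**Figure D5:**
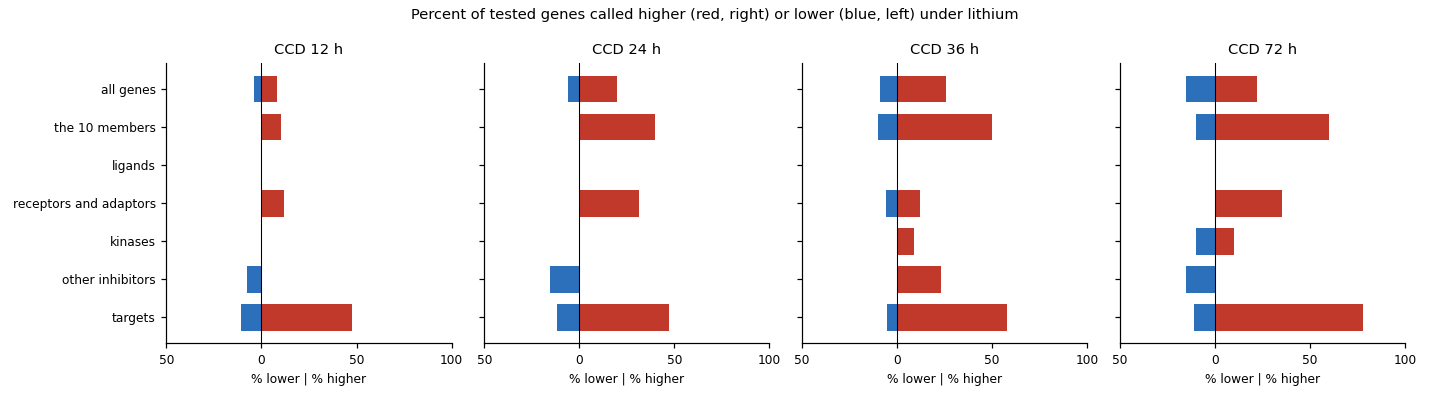
Percent of tested genes called higher (red, to the right) or lower (blue, to the left) under lithium in CCD at each time, for all genes, the 10 members and the 5 lists of pathway genes. Targets have the longest red bars at each time, with 14 of 18 at 72 h, and the 1 ligand tested has no bar.

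Some markers of cell types changed beside the members. In CCD at 72 h 1 of 12 leukocyte markers was called, Cd74, and it was higher; the 14 matched markers summed to 28.62 to 636.55 TPM in controls and 165.52 to 1151.17 TPM under lithium, and none was at 0 in all libraries of either group. All 8 endothelial markers tested were lower, and the 9 matched summed to 22.16 to 226.48 TPM in controls and 8.59 to 86.81 TPM under lithium. All 7 principal cell markers and all 7 intercalated cell markers were lower, with medians of 14657 and 10336 TPM and of 9851 and 7006 TPM summed in controls and lithium. Of the other lists 1 of 4 proximal tubule markers and 1 of 2 fibroblast and smooth muscle markers were lower, and 1 of 5 thick ascending limb markers was higher. Of all genes at 72 h limma called 22% higher and 15.2% lower. On means of sets it called 4 principal cell, 6 intercalated cell and 4 endothelial markers, beside 15.1% of all genes. No marker of the other lists was called there, Cd74 included. At 36 h the 7 principal cell markers were again lower (17536 to 21319 TPM summed in controls, 8854 to 9719 TPM under lithium), as were 4 of 7 intercalated cell and 2 of 8 endothelial markers and 1 of 3 of the thick ascending limb, while 1 of 3 fibroblast and smooth muscle markers was higher. Limma called no leukocyte marker then (0 at an unadjusted p under 0.05) and no proximal tubule marker (0). At 24 h 4 of 9 proximal tubule markers were lower (377.46 to 1507.98 TPM summed over 11 matched markers in controls, 90.57 to 202.87 TPM under lithium), 1 of which was called on means of sets. At that time 3 of 7 principal cell and 3 of 7 intercalated cell markers were also lower, and 1 principal cell marker, 1 of 13 leukocyte markers and 2 of 4 thick ascending limb markers were higher. At 12 h 2 of 13 leukocyte, 3 of 7 principal cell and 1 of 7 intercalated cell markers were lower and 1 principal cell marker was higher. Of the markers called at the early times, 4 principal cell markers at 36 h and 1 proximal tubule marker at 24 h were called on means of sets. Of all genes over libraries, 25.5% were higher and 9.28% lower at 36 h. These shares were 19.9% and 5.77% at 24 h, and 7.96% and 3.78% at 12 h. The part of these changes in the results for the members was not tested. Between the control segments 12 of 13 leukocyte markers were lower in CCD, beside 18.6% of all genes, with sums of 2154 to 6561 TPM in cTAL. All 9 endothelial markers (238.95 to 668.9 TPM summed in cTAL) and 5 of 7 proximal tubule markers (61.43 to 492.46 TPM) were lower in CCD too, and the part of these lists in the difference of Nfkbia was not tested.

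Genes whose group means followed each member most closely were taken from 10840 genes with a group mean of at least 5 TPM, by Pearson's r of log2(TPM + 1) over the 10 groups, which share library sets and scaling. For Nfkb2 these were Bax (r = 0.979), Fbl (0.978) and Wdr18 (0.974), and for Relb Phlda3 (0.962), Mmp2 (0.958) and Tead2 (0.954). For Bcl3 they were Cdkn1a (0.967), RGD1561916 (0.963) and Ptp4a2 (0.957), and for Nfkbie Pdlim7 (0.957), Bcl2l12 (0.952) and Slu7 (0.948). For Nfkbia they were Fam53a (0.900), Tcirg1 (0.886) and Zc3h12a (0.879), the last of which encodes the RNase regnase-1, another brake on inflammatory transcripts. Nfkbiz was most like Arrdc2 (0.946), RGD1561795 (0.924) and Nap1l3 (0.924), and Tnfaip3 most like Puf60 (0.972), AABR07042821.1 (0.969) and Ilkap (0.966). Rela was most like St14 (0.987), Tmem248 (0.986) and Mapk3 (0.985), Nfkb1 most like Mapkapk2 (0.983), Hk1 (0.979) and Cabin1 (0.976), and Rel most like Fv1 (0.938), Pex11a (0.937) and Parp6 (0.914). These are descriptions over 10 points, and no member was among the 3 nearest genes of another.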

How the data were processed

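RNA was measured in hand-dissected CCD and cTAL, in 75 libraries. Per the labels' protocols, SMARTer V4 cDNA, amplified over 15 PCR cycles, went into Nextera XT libraries (input 1 ng). The authors deposited TPM per gene and library rounded to 2 decimals. The tools STAR 2.5.2b and RSEM 1.2.31 and the build Rnor_6.0 are named, per the submitters' processing notes. TPM keeps no depth, so no counting error can be given and precision rests on the spread between libraries. Strand is not kept, so overlapping antisense genes cannot be told apart.

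Groups came from the labels. Each comparison was fitted across all genes with limma 3.58.1 (R 4.3.3, trend) on log2(TPM + 1), with two-sided p-values adjusted by Benjamini-Hochberg over all genes tested. Genes under 1 TPM were dropped unless the number of libraries that reached 1 TPM matched the smallest group. The 6 early CCD groups were fitted jointly, as were the 4 groups at 72 h for differences between segments and the 8 CCD groups for F tests over time. The fit was tested on simulated data. All 10 members are named in each comparison, with counts and up to 3 called genes of smallest p per pathway list. The members and lists were chosen with earlier results of these data known, and the rule for library sets (5 genes with levels separated by at least 0.7 on the log2 scale) was set after seeing the data. Alternatives were a pseudocount of 0.1 TPM, no filter, median-of-ratios scaling, the replicate block, means of sets, other joint fits and left-out libraries or sets. Between segments, means of sets were also fitted with the set as a block. Python 3.11.15, numpy 2.4.6, pandas 2.3.3 and matplotlib 3.10.9 were used.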

Additional observations from a re-analysis of the deposited data

Results flagged for a closer look

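The lithium effect at 72 h differed between CCD and cTAL, by limma's test of the difference, by 1.26 in Nfkb2, 1.68 in Relb, 0.85 in Nfkbia, 1.45 in Nfkbie and 1.96 in Bcl3 on the log2 scale. The lithium effect on Bcl3 in CCD differed between the 4 times (limma's F test, adjusted p = 0.0189). That call is description only, since Bcl3 passed the filter through its lithium libraries. In 3 members 1 of the 10 lithium cTAL libraries lay far from the others relative to the range of the group: the highest Rela at 76.6 TPM, the lowest Nfkbie at 15.2 TPM and the lowest Nfkbiz at 0.46 TPM. Chance flags about 1 in 20 groups in this way, and the lithium cTAL group was the only one of 4 to 10 libraries, to which this examination is limited.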

How the results depend on the processing

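On the means of library sets no member was called in CCD at 36 h (0, against 6 over libraries), 24 h (0, against 4) or 12 h (0, against 1), over the 4 times under lithium (0, against 1) or over control times (0, against 3), and 2 in place of 4 were called between control segments; there each early group counts as 1 value, so fewer samples enter. Fitting all 8 CCD groups together gave 3 at 36 h and 0 at 24 h, and the cause was not tested. Shares of all genes called are not given for this fit or for the alternatives below. Their counts therefore show nothing particular to the members. For the lithium effect over time, a pseudocount of 0.1 TPM gave 0 and median-of-ratios scaling 2; between control segments that scaling gave 6 called in place of 4 and turned Nfkb1 to -0.26; the causes were not tested. Same-numbered libraries mostly did not deviate together. In CCD correlations were over 0.1 in 5 of 17 shared numbers at 72 h, 0 of 3 at 36 h, 1 of 3 at 24 h and 1 of 2 at 12 h. They were over 0.1 in 3 of 10 in cTAL and in 4 of 12 between control segments. The numbers were therefore not taken as pairs. A replicate block gave 2 members for the lithium effect over time and 5 for control times. It gave the counts as reported, within 1, in the other 7 comparisons. Leaving out 1 library or set at a time gave 6 to 7 members in CCD at 72 h, 5 to 6 at 36 h, 2 to 5 at 24 h, 1 to 1 at 12 h, 0 to 1 in cTAL, 2 to 5 between control segments, 5 to 7 for the difference between segments, 0 to 3 for lithium over time and 1 to 4 for control times. Leaving out control CCD library 17 was chosen after seeing the data. Depth is unknown, and values under 1 TPM (Bcl3, Rel, Tnfaip3) are least certain.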
